A study of Mus musculus with 6 samples.

Results

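The genes described here encode the collagens and other structural proteins of the extracellular matrix, the protein scaffold outside cells, in adipose tissue of mouse offspring. The set is a list of 40 named genes. Its rule uses no difference between the groups, but the list was chosen with earlier results of these data known. A gene was measured where the platform annotation gave a probe set that single gene symbol, and where a gene had several such probe sets the brightest on average was used. By this rule 38 of the 40 genes were measured, among 22180 genes in all. Fbn1, the fibrillin of microfibrils, had no probe set with that symbol, and the probe sets of Loxl2, a lysyl oxidase, were annotated to a second symbol as well, so neither was analysed here.

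The series compared offspring at 32 weeks of age whose mothers had been fed a chromium restriction diet (3 arrays) or a control diet (3 arrays), with 1 biotin-labelled array of total tissue RNA per sample. Chromium is a trace metal obtained from food. The sources used here give neither strain, sex nor fat depot of the offspring, nor the length of the maternal diet. Samples are numbered within a group, but nothing says that each was a separate animal or litter; the p-values reflect only the spread among these samples, which may be technical.

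Adipocytes in fat are wrapped in a basement membrane built of laminins, type IV collagen, nidogens and the heparan sulfate proteoglycan perlecan. Between the cells lies an interstitial matrix of fibrillar collagens, with types I and III as the bulk and type V as a minor partner, joined by the beaded filaments of collagen VI. Elastin and microfibrils give stretch, lysyl oxidases crosslink collagen and elastin, and small leucine-rich proteoglycans such as decorin bind to collagen fibrils. Fibroblasts and progenitor cells make most of the fibrillar collagen, and matrix accumulates in fat in obesity.

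Values are deposited array values taken to be on a log2 scale, and differences are chromium restriction minus control. On every array the marker genes of adipocytes were bright, with a list mean of 11.83 to 12.31 over 10 genes against array medians of 5.44 to 5.57. Of these 10 genes 0 had a higher mean in the chromium restriction group, and Adipoq, whose deposited row carried extra digits, was the 1 past the test, at 10.54 against 11.76. The 2 libraries labelled chromium restriction replicates 1 and 3 were rich in liver transcripts: the mean of 7 liver genes was 11.33 and 10.90 there, 6.55 in replicate 2 and 6.56 to 6.94 in the controls. Of the matrix genes, 35 lay above the upper quartile on all 6 arrays, and the exceptions were Col18a1, Col8a1 and Col12a1. No matrix gene lay in a row whose deposited values carried extra digits.

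Most matrix genes had a higher mean in the chromium restriction group, but the differences were small beside the spread between arrays of a group. In limma 0 of 38 genes passed an adjusted p of 0.05, where 0.194% of all genes did, and the smallest adjusted p of a matrix gene was 0.77. Without the rows that carried extra digits, which held no matrix gene, 0 of 22128 genes passed. At an unadjusted p under 0.05 there were 2 of 38, Col18a1 higher and Lamb1 lower, which is 5.26% against 5.95% of all genes. Their unadjusted p was 0.0233 and 0.0182. The mean was higher in the chromium restriction group for 28 of 38 genes, or 73.7%, against 43.2% of all genes. The median log2 difference was 0.18 for the matrix genes and -0.018 for all genes. In 2 genes, Col18a1 and Bgn, the 3 chromium restriction arrays all lay above the 3 controls, where 3.53% of all genes did so. In another 2, Lamb1 and Lama2, they all lay below, where 6.06% of all genes did so. The counts of single genes were thus near the background, and the shift in direction was spread over many genes.

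**Figure D1:**
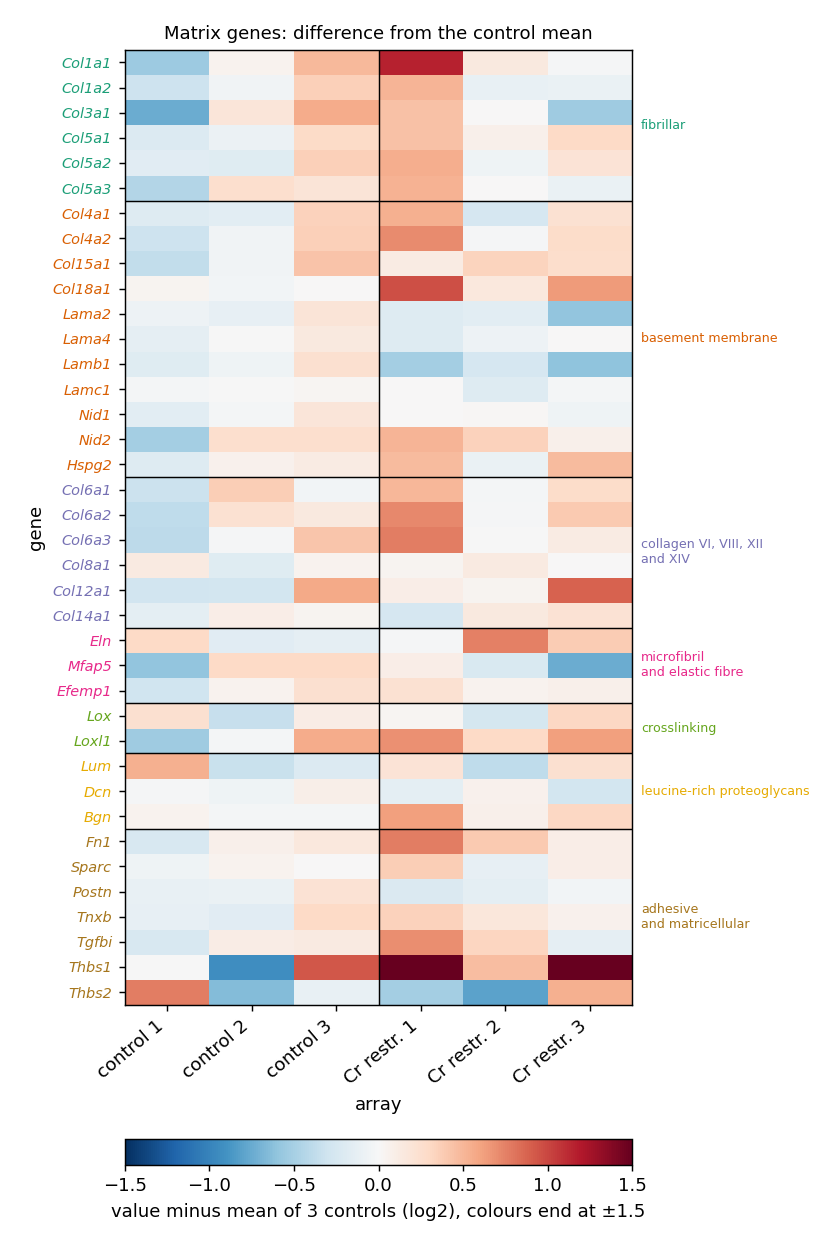
Each row is a matrix gene, grouped by class, and each column an array (Cr restr. stands for chromium restriction); colour gives the array's value minus the mean of the 3 controls on the log2 scale. Chromium restriction replicate 1 was the highest array for 18 of 38 genes and control replicate 1 the lowest for 18 of 38.

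The arrays within a group differed as much as the groups did. Relative to the control mean, the median matrix gene was at 0.41 in chromium restriction replicate 1, at 0.0028 in replicate 2 and at 0.11 in replicate 3. The controls themselves ran from -0.18 in replicate 1 through -0.039 in replicate 2 to 0.20 in replicate 3. The median SD within a group was 0.29 in both groups for matrix genes, against 0.14 and 0.13 for all genes. Of the controls, replicate 1 was lowest in 26 of 38 matrix genes, or 68.4%, against 34.2% of all genes. Control replicate 1 was also the array with the highest brown fat genes (Ucp1 at 10.25, against 4.89 and 7.37 in the other controls) and the lowest mesothelial markers; their part in the result was not tested for brown fat genes, and the fit with mesothelial markers is given further on.

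Among the fibrillar collagens, which form the load-bearing fibres, 5 of 6 genes had a higher mean in the chromium restriction group and 0 passed the test, with a median log2 difference of 0.19. Col1a1, a chain of type I collagen, measured 10.78, 9.77 and 9.61 on the chromium restriction arrays and 9.08, 9.68 and 10.10 on the controls, each in the order of replicates 1, 2 and 3, which is kept throughout. The groups overlapped, with 1 high chromium restriction array and 1 low control. Its difference was 0.43 ± 0.38 (log2, SE, n = 3 per group, adjusted p = 0.969 in limma), with a 95% interval of -0.50 to 1.35. It was 0.065 without chromium restriction replicate 1, 0.16 without control replicate 1, 0.14 without the liver-rich arrays and 0.075 with the liver genes as a covariate, and 0.65 to 0.67 without replicate 3 of either group. Its partner chain Col1a2 was at 9.57, 8.94 and 8.96 against 8.75, 9.01 and 9.42. The type III chain Col3a1 was at 10.60, 10.16 and 9.62 against 9.42, 10.34 and 10.72, a difference of -0.032 ± 0.39 (log2, SE, n = 3, limma adjusted p = 0.997). In these 3 genes the same array was the lowest control, and it was replicate 1.

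The type V chains regulate the diameter of type I fibrils. Col5a1 was at 8.27, 7.91 and 8.12 in the chromium restriction arrays and at 7.63, 7.74 and 8.12 in the controls, so that control replicate 3 alone reached the chromium restriction range. Col5a2 was at 8.002, 7.40 and 7.67 against 7.28, 7.28 and 7.81, and Col5a3 was at 8.43, 7.91 and 7.81 against 7.47, 8.16 and 8.10. Both overlapped between the groups, and in each of the 6 fibrillar genes except Col3a1 chromium restriction replicate 1 was the highest of the 6 arrays.

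Within the basement membrane class, with all arrays used, the collagens had higher means and the laminins lower means in the chromium restriction group. Over the class, 6 of 11 genes were higher and 5 lower, 0 passed the test, and the median log2 difference was 0.17. The 4 collagen genes were all higher, with a median of 0.28, and the 4 laminin genes were all lower, with a median of -0.20, where 43.2% of all genes were higher. Of the laminins, Lama4 and Lamc1 differed by only -0.086 ± 0.099 and -0.069 ± 0.080 (log2, SE, n = 3). The split into collagens and laminins was made after the values were seen, and it is a description without a test. Without the liver-rich arrays the 4 laminin genes were still lower, but of the collagens Col4a1 and Col4a2 were lower too.

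Col18a1 encodes a basement membrane collagen whose cleaved end is endostatin. It was at 7.75, 6.95 and 7.41 in the chromium restriction arrays and at 6.82, 6.74 and 6.78 in the controls. All 3 chromium restriction values were above the controls, and the controls lay close together, but replicate 2 exceeded the highest control only slightly. The mean was 1.505-fold higher, a log2 difference of 0.59 ± 0.20 (SE, n = 3 per group, limma adjusted p = 0.789), with a 95% interval of 0.11 to 1.07. Without chromium restriction replicate 2, and so with the 2 liver-rich arrays alone against 3 controls, the difference was 0.80 ± 0.12 (SE) and the adjusted p 0.0408 in limma, the 1 matrix gene past the test there; 1.98% of all genes passed in that fit. Without the 2 liver-rich arrays the difference was 0.16, and with the liver genes as a covariate it was 0.18.

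Lamb1, the beta chain of common laminins, went the other way. It was at 9.32, 9.57 and 9.22 in the chromium restriction arrays and at 9.65, 9.77 and 10.07 in the controls, without overlap. The mean was 1.37-fold lower, a log2 difference of -0.46 ± 0.14 (SE, n = 3 per group, limma adjusted p = 0.77), with a 95% interval of -0.80 to -0.11. Lama2, the laminin alpha chain also known from muscle, was at 8.35, 8.39 and 7.96 against 8.47, 8.42 and 8.74. Here too the groups did not overlap, although the nearest values, 8.39 and 8.42, almost touched, and the difference was -0.31 ± 0.15 (SE, n = 3, limma adjusted p = 0.829). In chromium restriction replicate 2 alone, the array of that group without high liver transcripts, the differences from the controls were -0.26 for Lamb1 and -0.16 for Lama2. Lama2 was at -0.17 without chromium restriction replicate 3 alone.

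The other laminin chains were nearly level. Lama4, found in the basement membranes of vessels and fat cells, was at 10.25, 10.37 and 10.44 in the chromium restriction arrays and at 10.31, 10.43 and 10.58 in the controls. Lamc1, the gamma chain shared by most laminins, was at 9.98, 9.77 and 9.94 against 9.94, 9.96 and 9.99, with a 95% interval of the difference of -0.26 to 0.12. Nid1, a nidogen that bridges laminin and collagen IV, was at 11.67, 11.69 and 11.60 against 11.52, 11.64 and 11.86. All 3 overlapped between the groups. The related Nid2 was at 9.33, 9.16 and 8.89 against 8.31, 9.07 and 9.07, with 1 low control, again replicate 1.

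Type IV collagen is the network former of basement membranes, and its common chains Col4a1 and Col4a2 are neighbours on chromosome 8. These 2 genes lie on opposite strands, are transcribed in opposite directions and overlap at their starts. They are shown because they share a promoter, and they were picked after their values were seen. The order of the 6 arrays was not the same in the 2 genes. Chromium restriction replicate 2 was the lowest array for Col4a1 but lay above control replicates 1 and 2 for Col4a2. In RefSeq (GRCm38.p6) the gene starts lie 21 bases apart, and the windows of 250 bases before to 50 bases after each start overlap by 78 bases, which are in capitals below, each written 5′ to 3′ on the strand of its gene, Col4a1 on the minus strand at chr8:11312777-11313076 and Col4a2 on the plus strand at chr8:11312555-11312854.
Col4a1: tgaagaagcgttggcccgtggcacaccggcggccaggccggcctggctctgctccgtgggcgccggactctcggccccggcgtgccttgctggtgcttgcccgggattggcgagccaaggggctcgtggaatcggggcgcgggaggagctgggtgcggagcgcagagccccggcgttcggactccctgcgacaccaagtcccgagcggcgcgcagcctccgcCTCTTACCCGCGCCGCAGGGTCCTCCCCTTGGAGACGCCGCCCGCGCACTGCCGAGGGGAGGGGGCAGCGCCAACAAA
Col4a2: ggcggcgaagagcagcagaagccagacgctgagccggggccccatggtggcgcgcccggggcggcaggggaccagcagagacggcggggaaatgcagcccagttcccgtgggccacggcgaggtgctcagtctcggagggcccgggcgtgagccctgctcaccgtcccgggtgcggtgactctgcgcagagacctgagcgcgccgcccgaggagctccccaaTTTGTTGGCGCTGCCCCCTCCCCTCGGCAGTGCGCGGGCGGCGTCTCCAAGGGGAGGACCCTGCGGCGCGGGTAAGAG

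Both windows held a GC box (GGGCGG) and a CCAAT box, searched as these letters on either strand, and neither held the TATA box letters TATAAA. Their G and C content was 74.0% and 73.7%. Among all 32851 promoter windows 35.7% held the GC box, 37.4% the CCAAT box and 13.6% the TATA box; among 26 windows of the 23 matrix genes that matched, 16, 9 and 3 did. These are matches of letters and no evidence of binding.

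Col4a1 was at 9.52, 8.73 and 9.21 in the chromium restriction arrays and at 8.80, 8.83 and 9.33 in the controls. Col4a2 was at 9.37, 8.65 and 8.95 against 8.36, 8.61 and 9.03. For both genes the highest array was chromium restriction replicate 1, followed by control replicate 3 and chromium restriction replicate 3. The same arrays came first, in this order, for Col5a2 and Col6a3 too. Col6a3, on chromosome 1, had the order of Col4a2 on all 6 arrays, so the order was not particular to this pair. The differences were 0.17 ± 0.24 for Col4a1 and 0.33 ± 0.24 for Col4a2 (log2, SE, n = 3 per group, limma adjusted p = 0.988 and 0.939). The groups overlapped in both. Without the liver-rich arrays the differences turned to -0.25 and -0.013, and with the liver genes as a covariate to -0.26 and -0.034; Col4a1 also turned to -0.013 without chromium restriction replicate 1 alone.

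The remaining basement membrane genes are Col15a1, a collagen related to Col18a1, and Hspg2, which encodes perlecan. Col15a1 was at 8.67, 8.88 and 8.80 in the chromium restriction arrays and at 8.16, 8.48 and 8.97 in the controls. Hspg2 was at 9.93, 9.36 and 9.94 against 9.27, 9.53 and 9.59, so the liver-rich arrays alone exceeded all 3 controls.

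Of the class holding collagens VI, VIII, XII and XIV, 6 of 6 genes had a higher mean in the chromium restriction group, 0 passed the test, and the median log2 difference was 0.27. The 3 chains of collagen VI, the beaded filament around adipocytes, assemble together. Col6a1 was at 11.05, 10.52 and 10.82 in the chromium restriction arrays and at 10.22, 10.92 and 10.51 in the controls. Col6a2, its neighbour on chromosome 10, was at 9.73, 8.99 and 9.40 against 8.63, 9.24 and 9.16. Col6a3, whose cleaved end is endotrophin, was at 9.17, 8.40 and 8.53 against 8.01, 8.38 and 8.82.

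For each collagen VI chain chromium restriction replicate 1 was the highest array and control replicate 1 the lowest, and the groups overlapped. The difference of Col6a2, the highest of the class, was 0.36 ± 0.24 (log2, SE, n = 3 per group, limma adjusted p = 0.911). Without the liver-rich arrays it was -0.020, and without control replicate 1 it was 0.17. Col14a1, a fibril-associated collagen, was at 7.89, 8.29 and 8.35 against 7.99, 8.24 and 8.18, and its difference of 0.038 ± 0.14 (SE, n = 3, limma adjusted p = 0.997) was the lowest of the class. The fibril-associated Col12a1, at 5.79, 5.75 and 6.58 against 5.41, 5.42 and 6.27, had 1 high array in each group, replicate 3 of both. Col8a1, a short-chain collagen of vessel walls, was at 6.71, 6.81 and 6.67 against 6.81, 6.49 and 6.72.

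**Figure D2:**
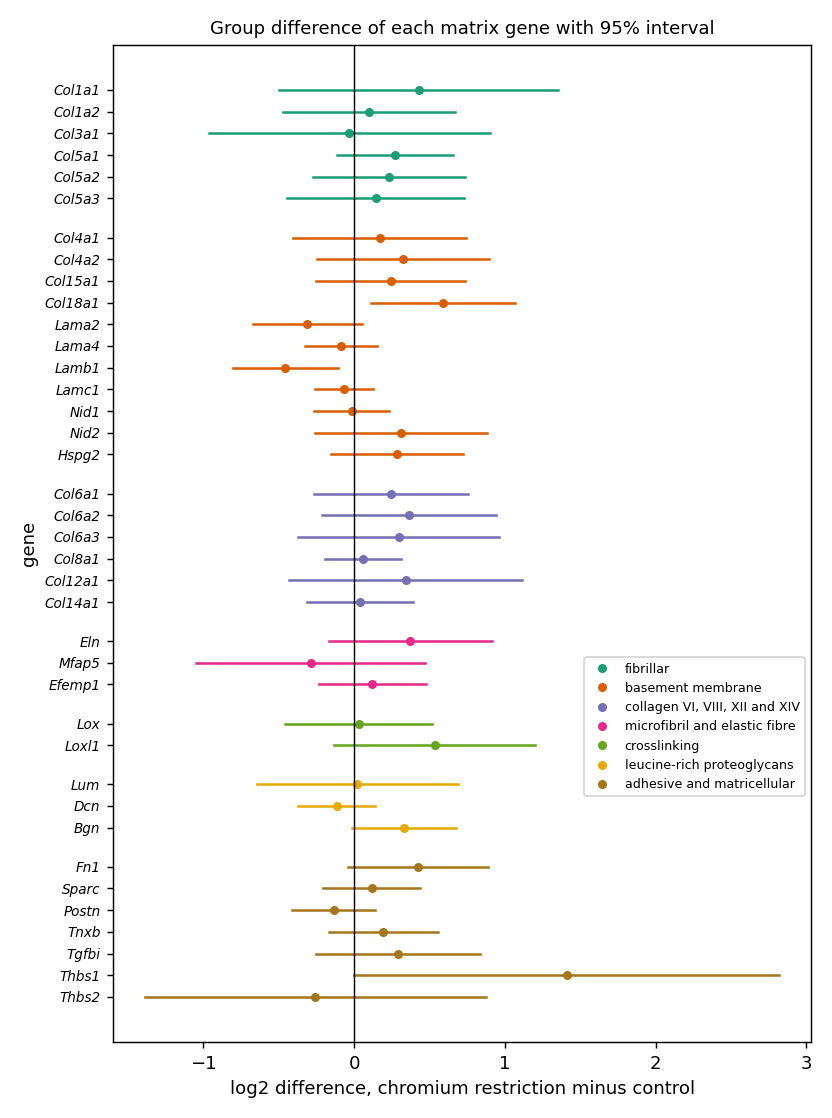
Points give the log2 difference of each matrix gene, chromium restriction minus control (3 arrays each), and lines its 95% interval from limma, coloured by class. The intervals of Col18a1 (0.11 to 1.07) and Lamb1 (-0.80 to -0.11) leave out 0 before adjustment, and the others include it.

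In the microfibril and elastic fibre class 2 of 3 measured genes were higher and 1 lower, 0 passed, and the median log2 difference was 0.12. Eln, elastin, was at 7.16, 7.93 and 7.55 in the chromium restriction arrays and at 7.48, 7.01 and 7.04 in the controls, a difference of 0.37 ± 0.22 (log2, SE, n = 3 per group, limma adjusted p = 0.895), which was 0.18 without chromium restriction replicate 2 and 0.57 without replicate 1. Unlike most matrix genes it was highest in chromium restriction replicate 2, where smooth muscle markers stood at 0.54 over the control mean (0.90 in replicate 3 and 0.86 in control replicate 1) and the intestinal gene Sis, sucrase-isomaltase, at 7.09, against 4.53 to 4.62 elsewhere; their part in this value was not tested. Mfap5, a microfibril glycoprotein, was at 9.05, 8.71 and 8.20 against 8.35, 9.23 and 9.24, a difference of -0.29 ± 0.31 (SE, n = 3, limma adjusted p = 0.978), which was -0.062 without chromium restriction replicate 3 and -0.59 without control replicate 1. Efemp1, a fibulin of elastic tissue, was at 11.59, 11.41 and 11.44 against 11.07, 11.41 and 11.60. In all 3 genes the groups overlapped.

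Crosslinking was represented by 2 lysyl oxidase genes, both with a higher mean in the chromium restriction group and neither past the test, with a median log2 difference of 0.28. Loxl1, which acts on elastin, was at 8.74, 8.35 and 8.66 in the chromium restriction arrays and at 7.52, 8.03 and 8.61 in the controls. The controls spanned over a log2 unit, and the highest of them lay among the chromium restriction values. Its difference was 0.53 ± 0.28 (log2, SE, n = 3 per group, limma adjusted p = 0.845). It was 0.27 without control replicate 1, 0.81 without control replicate 3, 0.30 without the liver-rich arrays and 0.27 with the liver genes as a covariate. Lox, the founding member, was at 8.88, 8.58 and 9.15 against 9.08, 8.50 and 8.95, a difference of 0.029 ± 0.20 (SE, n = 3, limma adjusted p = 0.997).

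The leucine-rich proteoglycans had a median log2 difference of 0.020, with 2 of 3 higher, 1 lower and 0 past the test. Bgn, biglycan, was at 12.22, 11.67 and 11.90 in the chromium restriction arrays and at 11.65, 11.57 and 11.57 in the controls. The groups did not overlap, but replicate 2 barely exceeded the highest control. The mean was 1.26-fold higher, a difference of 0.33 ± 0.14 (log2, SE, n = 3 per group, limma adjusted p = 0.817), and it was 0.073 without the liver-rich arrays and 0.19 without chromium restriction replicate 1 alone. Dcn, decorin, was at 12.63, 12.85 and 12.51 against 12.76, 12.71 and 12.86, a difference of -0.12 ± 0.11 (SE, n = 3, limma adjusted p = 0.969). Lum, lumican, which lies beside Dcn on chromosome 10, was at 10.18, 9.59 and 10.22 against 10.50, 9.65 and 9.77. Its highest array was control replicate 1, the array in which the other matrix genes were most often lowest.

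**Figure D3:**
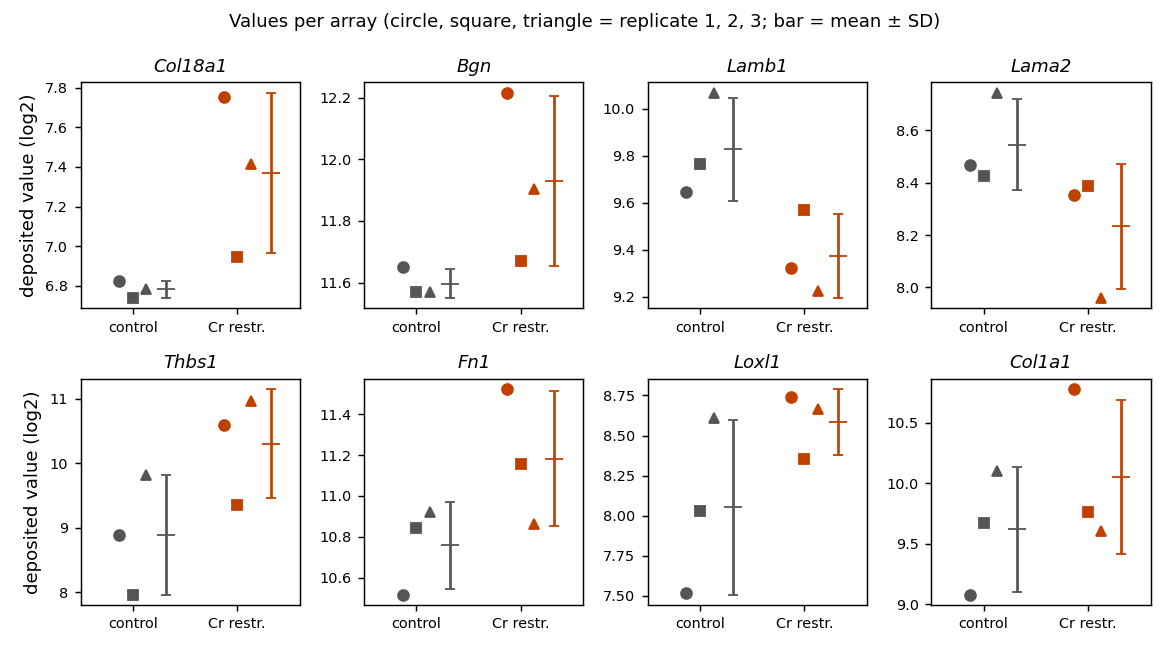
Deposited log2 values of 8 matrix genes on each array, with control arrays in grey, chromium restriction arrays in orange, and the mean ± SD of 3 arrays beside them; each panel has its own scale, which does not start at 0. Col18a1 and Bgn do not overlap upward and Lamb1 and Lama2 do not overlap downward, while Thbs1, Fn1, Loxl1 and Col1a1 overlap.

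Among the adhesive and matricellular proteins, 5 of 7 genes were higher, 2 lower and 0 past the test, with a median log2 difference of 0.19. Thbs1, a thrombospondin that binds cells and activates latent TGF-beta, had the highest difference of the set. It was at 10.59, 9.35 and 10.97 in the chromium restriction arrays and at 8.89, 7.97 and 9.82 in the controls. Both groups spread widely, and control replicate 3 exceeded chromium restriction replicate 2. The mean was 2.66-fold higher, a log2 difference of 1.41 ± 0.58 (SE, n = 3 per group, limma adjusted p = 0.817), and 0.46 without the liver-rich arrays. Thbs2, its relative, was at 9.01, 8.71 and 10.05 against 10.28, 8.87 and 9.40, a difference of -0.26 ± 0.47 (SE, n = 3, limma adjusted p = 0.991). Its direction depended on single arrays, at 0.12 without control replicate 1 and 0.014 without chromium restriction replicate 2. Without both liver-rich arrays the difference was -0.80.

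Fn1, fibronectin, links cells to collagen, and hepatocytes secrete its plasma form. It was at 11.52, 11.16 and 10.86 in the chromium restriction arrays and at 10.52, 10.84 and 10.92 in the controls. Control replicate 3 slightly exceeded chromium restriction replicate 3. The difference was 0.42 ± 0.19 (log2, SE, n = 3 per group, limma adjusted p = 0.817), and it was 0.40 without the liver-rich arrays and 0.36 with the liver genes as a covariate. It was 0.25 without chromium restriction replicate 1 and 0.27 with array weights.

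Tgfbi, a TGF-beta-induced adhesive protein, was at 10.10, 9.73 and 9.27 in the chromium restriction arrays and at 9.16, 9.52 and 9.54 in the controls. Sparc, a collagen-binding glycoprotein, was at 11.72, 11.23 and 11.45 against 11.29, 11.41 and 11.36. Postn, periostin, was at 10.16, 10.22 and 10.33 against 10.26, 10.27 and 10.59. These 3 overlapped, as did Tnxb, a tenascin of connective tissue, at 8.80, 8.62 and 8.52 against 8.33, 8.28 and 8.75.

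The shift of the set varied with the arrays used, in both groups, and leaving out any single array did not turn its direction. In 8 of 38 matrix genes, or 21.1%, both liver-rich arrays lay above the other 4, against 8.31% of all genes. These genes were Col5a1, Col18a1, Hspg2, Col6a2, Loxl1, Bgn, Sparc and Thbs1. Without the 2 arrays, leaving 1 array against 3, 20 of 38 genes were higher and the median log2 difference was 0.0028, against 43.4% higher and a median of -0.021 for all genes. With the mean of the 7 liver genes as a covariate 17 of 38 were higher and the median was -0.027. Both fits rest mostly on the single chromium restriction replicate 2. Leaving out replicate 1 alone, which is liver-rich and also the array with the highest macrophage markers, gave 23 of 38 and a median of 0.067. Leaving out replicate 3 alone, the other liver-rich array, gave 27 of 38 and a median of 0.21. Without replicate 2 there were 28 of 38 higher, with a median of 0.22, and without control replicate 3 there were 29 of 38, with a median of 0.29. Without control replicate 1 the median was 0.11.

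**Figure D4:**
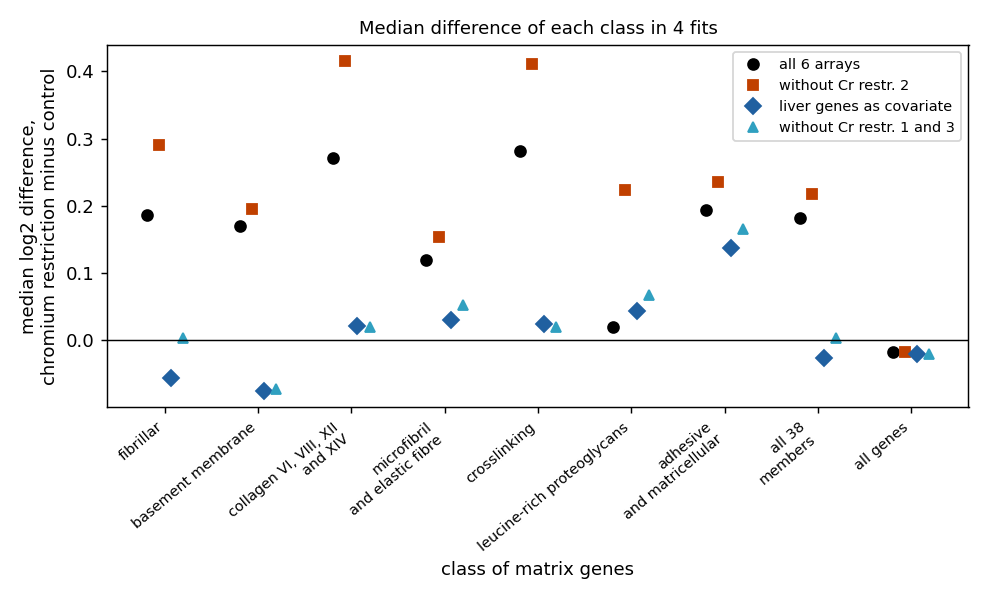
Median log2 difference (chromium restriction minus control) of each class, of the 38 matrix genes and of all genes, in 4 fits marked by symbol. For the 38 genes the median is 0.18 with all arrays, 0.22 without chromium restriction replicate 2, -0.027 with the liver genes as a covariate and 0.0028 without the liver-rich arrays.

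By class, the medians without the liver-rich arrays were 0.0028 for fibrillar collagens, -0.072 for the basement membrane, 0.020 for collagens VI, VIII, XII and XIV, and 0.17 for adhesive and matricellular genes. The genes furthest above the control mean in replicate 2 were Eln by 0.76, Thbs1 by 0.46, Fn1 by 0.40, Nid2 by 0.34, Col15a1 by 0.34 and Tgfbi by 0.32. The furthest below it were Thbs2 at -0.80 and Lum at -0.39. These genes were picked from these values and carry no test with 1 array.

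Markers of other cell types also differed between arrays, some in the direction of the matrix genes and some not. Fibroblast and progenitor markers, from the main makers of fibrillar collagen, were higher in 4 of 9 genes and lower in 5, with a median log2 difference of -0.0015. Relative to the control mean their median was 0.15, 0.016 and -0.29 in chromium restriction replicates 1, 2 and 3, against -0.081, -0.00080 and 0.16 in the controls. Pdgfra, which marks progenitors, was at 9.42, 9.77 and 8.78 against 9.72, 9.65 and 9.66. In bulk tissue, fewer cells of a type and less RNA per cell cannot be told apart. Smooth muscle and pericyte markers were higher in 8 of 8 genes, with a median of 0.33 and 0 past the test, but they were high in control replicate 1 too. Mesothelial markers were higher in 9 of 10, with 0 past the test, and their list mean was 6.49 in control replicate 1 and 7.36 to 7.79 on the other arrays. With that mean as a covariate 27 of 38 matrix genes were higher and the median was 0.13. Macrophage markers had a list mean of 9.48 in chromium restriction replicate 1, the array in which matrix genes were most often highest, and of 8.66 to 9.09 elsewhere; their part in the result was not tested.

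**Figure D5:**
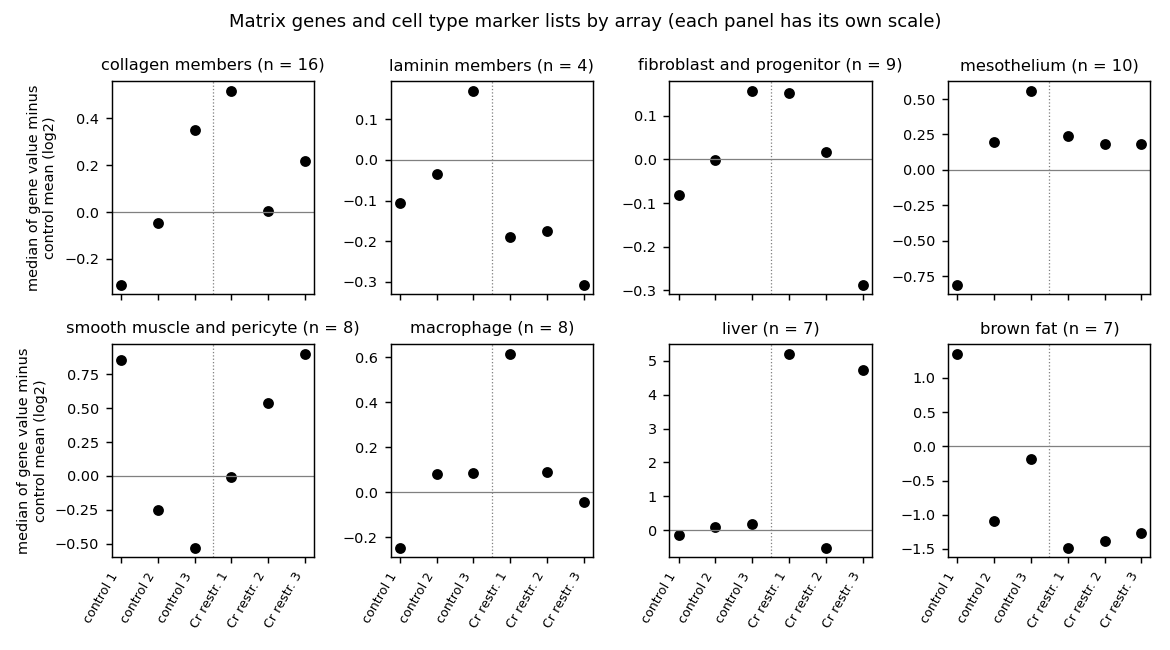
For each array, the median over a list of the gene's value minus its control mean (log2), for the 16 collagens, the 4 laminins and 6 lists of cell type markers; each panel has its own scale. Collagens are at 0.52 in chromium restriction replicate 1 and at -0.31 in control replicate 1, and the liver list is above 4 in chromium restriction replicates 1 and 3.

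Other genes of the matrix pathway were read from lists that name enzymes, signals and receptors. Of 20 measured genes for collagen biosynthesis 16 were higher and 0 passed the test, with a median log2 difference of 0.11. Pcolce2, an enhancer of procollagen processing, differed by 0.42 ± 0.18, P4hb, a subunit of prolyl hydroxylase, by 0.39 ± 0.19 and Mia3, needed for collagen export, by 0.13 ± 0.072 (SE, n = 3). Mia3 was the 1 gene of these 20 without overlap between the groups, and it lay above the controls. In the TGF-beta pathway, the main inducer of collagen genes, 13 of 23 were higher and 0 passed, with a median of 0.10. The feedback inhibitor Smad7 was at 6.23, 5.96 and 6.42 against 5.87, 5.73 and 5.55, and Ccn2, a target of the pathway, was at 7.41, 7.89 and 7.997 against 7.39, 6.998 and 6.73. Neither overlapped between the groups, and their adjusted p in limma was 0.734 and 0.751. In 3 of the 23 genes all chromium restriction arrays lay above the controls, and in 1 all lay below. The shares of all genes were 3.53% and 6.06%. The co-repressor Ski, also without overlap, differed by 0.26 ± 0.096 (SE, n = 3).

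Among the receptors for matrix 15 of 23 were higher, 8 lower and 0 past the test, with a median of 0.076. Cd44, the hyaluronan receptor, was at 6.26, 6.91 and 6.42 against 5.98, 5.79 and 5.83, without overlap (limma adjusted p = 0.679). Dag1, the dystroglycan that binds laminin, differed by -0.37 ± 0.14 and Itga5, a fibronectin receptor subunit, by 0.25 ± 0.089 (SE, n = 3). Both were without overlap too. In 3 of the 23 receptor genes all chromium restriction arrays lay above the controls, and in 1 all lay below, against 3.53% and 6.06% of all genes. The 27 collagens outside the set, most of them known from other tissues, were higher in 8, with a median of -0.027 and 0 past the test. Col6a5 (0.30 ± 0.36), Col11a2 (0.11 ± 0.14) and Col13a1 (-0.072 ± 0.095) had the smallest p of these (log2 difference, SE, n = 3).

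For 5 matrix genes a second, dimmer probe set gave another reading. For Bgn it differed by 0.53, against 0.33 in the probe set used, and for Col6a1 by 0.39, against 0.25. For Col5a1 it differed by 0.019, against 0.27, and for Col1a2 by 0.0020, against 0.098. The Nid1 probe sets differed by -0.033 and -0.017. The second Bgn probe set was at 8.94, 7.98 and 8.90 in the chromium restriction arrays and at 7.91, 8.24 and 8.07 in the controls, so there chromium restriction replicate 2 lay below 2 controls.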

How the data were processed

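RNA of 6 adipose samples was measured on 1-colour arrays, 1 per sample. The deposited values of 33793 probe sets, 3.49 to 14.86, were taken to be log2 from their range; the sources used here do not say how the authors summarised and normalized them, and they were used as deposited. Array quartiles lay close together, and arrays correlated at 0.95 to 0.99. The platform annotation supplied names: 23521 probe sets had 1 symbol, 1814 several and 8458 none. All 38 measured matrix genes matched RefSeq by Entrez identifier. Promoter windows are RefSeq's, by assembly GRCm38.p6.

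Groups were taken from the sample titles. The group difference of all 22180 genes was estimated in limma 3.58.1 (lmFit, eBayes; R 4.3.3), two-sided, adjusted by Benjamini-Hochberg over all of them; lists were described by counts and medians. The number of arrays limits the precision. On simulated data of 22180 genes the fit recovered 96.0% of genes changed by 1 log2 unit, with noise drawn from the controls only. The changed genes were drawn from all genes, and the noise left out the liver-rich arrays. Matrix genes had a median SD within a group of 0.29, against 0.14 and 0.13 for all genes. The share recovered therefore does not carry over to them.

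Matrix genes, classes and other lists were chosen with earlier results of these data known. Named were all matrix genes and, in each pathway list, the 3 with the smallest p. Genes with p under 0.05, no overlap between groups, or the highest or lowest difference of their class got a fitted difference with its SE. Fn1, Col4a1 and Col4a2 were added after their values were seen. Lama4 and Lamc1 were given too, with the split into collagens and laminins, which was also made after the values were seen. Replicate numbers were not taken as pairs. Alternatives were another normalization, a filter on dim genes, variance and weight options, probe set choice, the replicate block, leaving out arrays or rows with extra digits, and covariates.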

Additional observations from a re-analysis of the deposited data

How the results depend on the processing

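Of the matrix genes 0 passed the test in the main comparison and in each alternative except without chromium restriction replicate 2, where Col18a1 did, so leaving out an array gave 0 to 1. The count of all genes past the test was 43; it was 0 with the replicate block and 0 without the rows with extra digits, where the smallest adjusted p was 0.0707 and 0.0732 in limma, 6 without both liver-rich arrays, and 24 to 439 when an array was left out. Deviations of same-numbered arrays from their group means correlated at -0.12, -0.095 and 0.078, and chromium restriction replicate 1 correlated best with control replicate 2. These values showed no pairing by number. With 3 arrays per group, 2 of them liver-rich in 1 group, they cannot tell whether same-numbered samples shared a litter or batch. With the block, 5 matrix genes had an unadjusted p under 0.05, against 2. Leaving out an array gave 23 to 29 matrix genes higher and a median difference of 0.067 to 0.29. With the liver genes as covariate 17 were higher and the median was -0.027. In that fit 13 of 38 matrix genes changed direction, among them Col4a1 at -0.26, Col4a2 at -0.034, Col6a2 at -0.025, Dcn at 0.044 and Lox at -0.22. Without both liver-rich arrays, where the spread comes from the controls alone, 14 of 38 changed direction. Among them were Col4a1 at -0.25, Col4a2 at -0.013, Col6a2 at -0.020, Col3a1 at 0.0023, Dcn at 0.067 and Lox at -0.26. Array weights changed the direction of 2 matrix genes, among them Thbs2 at 0.089. Leaving out an array changed the direction of 2 to 5 matrix genes at a time. Among them, Col3a1 ranged from -0.40 to 0.25, Col14a1 from -0.049 to 0.18, Lox from -0.14 to 0.17, Thbs2 from -0.66 to 0.12 and Col4a1 from -0.013 to 0.38. None of these genes was past the test in either fit, and apart from the arrays left out the cause was not tested. Quantile normalization, median centring, the filter on dim genes, the trend and robust options, averaging over probe sets, and all probe sets as tested units changed the direction of 0 of the matrix genes tested there. The background level of the arrays is not known here, so compression of low values such as those of Col12a1 could not be judged.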
